A study of Homo sapiens with 6 samples.

Results

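The genes examined here are 10 members of the GALNT family, which code for polypeptide GalNAc transferases: GALNT1, GALNT2, GALNT3, GALNT5, GALNT6, GALNT7, GALNT10, GALNT12, GALNT14 and GALNT16. They were taken by symbol from the 17860 genes listed in the deposited table, which lists 20 genes of this family in all. The set was chosen by its measured values in this comparison: GALNT2 was selected on the rise of its counts in shMSLN cells, so its own values are given as a description with no test, and the other 9 were selected as its paralogs with results of the same comparison known. HCC1806/HM3 cells are the liver-tropic derivative of HCC1806, a human triple-negative breast cancer line whose samples are labelled as breast squamous cell carcinoma cells, obtained by repeated fat pad injection and outgrowth of liver metastases in mice. All cells had been infected with lentivirus and selected with G418, and carried either a control shRNA (shNC, labelled genotype Control) or an shRNA against MSLN (shMSLN). There were 3 shNC and 3 shMSLN samples, each a library of oligo(dT)-enriched mRNA, sequenced to ask which transcripts differ once MSLN, a GPI-anchored cell surface protein, is lowered. Nothing in the labels says whether the 3 samples of a group came from separate cultures, so p-values measure the spread between these samples, which may be technical.

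GalNAc transferases sit in the Golgi and attach N-acetylgalactosamine from UDP-GalNAc to serine or threonine of a passing protein, which is the first step of mucin-type O-glycosylation. The sugar left by this step, the Tn antigen, is then extended to core structures or capped with sialic acid by other enzymes. Short O-glycans on mucins are a long-known feature of breast carcinoma cells. The paralogs differ in which peptides they take and in whether they prefer a bare peptide or one that already carries a sugar, so several of them are used side by side in 1 cell.

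MSLN itself, the check of the labels, was measured at 231, 226 and 227 CPM in shNC replicates 1, 2 and 3 and at 37.1, 36.2 and 35.4 CPM in shMSLN replicates 1, 2 and 3 (log2 fold change -2.65, standard error, SE, 0.042, adjusted p = 3.97e-15, edgeR). CPM are estimated counts relative to TMM-scaled library sizes, and adjusted p-values are from edgeR's quasi-likelihood test with Benjamini-Hochberg adjustment over all 14552 genes tested. A gene is called where its adjusted p is below 0.05. Total estimated counts ran from 17507837 to 18512135 per sample. All 9 epithelial keratin, cadherin and related markers were at or above 1 TPM (a level per transcript length and depth) in at least 1 sample, with a sum of 4445 to 4879 TPM in shNC and 4036 to 4175 TPM in shMSLN samples. The epithelial sum was thus lower in every shMSLN sample. Of its genes 4 were called lower and 2 higher (KRT17 and CDH1), where 18.0% and 16.6% of all tested genes were. Of those lower, KRT5 was the most abundant and KRT6A had the largest log2 fold change (-1.035, adjusted p = 4.12e-07, edgeR). Sums over 5 fibroblast markers were 12.91 to 13.37 TPM in shNC and 13.44 to 14.20 TPM in shMSLN samples, and those over 5 immune markers 8.55 to 9.35 and 10.4 to 11.7 TPM, both higher in every shMSLN sample. Sums over 4 endothelial markers overlapped, at 2.45 to 2.91 and 2.58 to 3.01 TPM. In these 3 lists 3, 2 and 3 genes were below 1 TPM and 0 were at 0 in every sample. Of the genes tested, 1 fibroblast (DCN) and 1 endothelial gene (VWF) were called higher and 0 lower. Not called were COL1A1 (log2 fold change 0.019), PDGFRB (-0.19) and PECAM1 (-0.089). CDH5 was lower in every shMSLN sample and just missed the threshold (-0.885, adjusted p = 0.0503, edgeR). The part of these differences in the results was not tested, and the marker genes are named after their values were seen. The deposited counts of shMSLN replicates 2 and 3 were exactly whole as deposited, with no rounding or tolerance, in 47.7% and 47.8% of genes above 100 counts, against 3.36% to 7.02% in the other 4 samples, so results were also computed without that pair.

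All 10 members share the catalytic fold of the family, in which an Asp-X-His triplet holds the metal ion. The stretch around that triplet is shown for the member chosen for its rise, its nearest relative in this stretch, the member with the smallest adjusted p, and the low-level member called higher. Each is read from the coding sequence of the GENCODE release 29 transcript on GRCh38, 57 bases in the direction of transcription, with the 3 codons of the triplet in capitals.
GALNT2: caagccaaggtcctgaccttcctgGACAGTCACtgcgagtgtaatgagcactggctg
GALNT12: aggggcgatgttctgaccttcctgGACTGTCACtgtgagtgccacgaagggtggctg
GALNT7: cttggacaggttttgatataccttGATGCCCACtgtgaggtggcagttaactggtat
GALNT16: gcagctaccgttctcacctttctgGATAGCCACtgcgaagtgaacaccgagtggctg
Searched together with the leucine before it, the triplet was found 1 time in each of the 10 coding sequences. Asp-X-His without that leucine was not counted. GALNT2 and GALNT12 differed at 16 of the 57 bases, the fewest among pairs of members, and GALNT5 and GALNT14 at 34, the most. The longest run shared by any pair of members over the whole coding sequence was 32 bases, between GALNT14 and GALNT16. 0 stretches of 50 bases in any member's transcripts occurred in another GALNT gene, so an exact read of that length falls in 1 paralog.

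GALNT2, one of the broadly active transferases that start O-glycans on bare peptides, was the most abundant member in both groups and stood at about 1.91 times its control level in shMSLN cells. It was measured at 250, 234 and 237 CPM in shNC replicates 1, 2 and 3, and at 468, 450 and 456 CPM in shMSLN replicates 1, 2 and 3. Each shMSLN sample lay far above each shNC sample, and the spread within a group was small (240 ± 8.63 against 458 ± 9.12 CPM, SD, n = 3 each). The log2 fold change was 0.93. In RNA from a whole culture, more cells with a transcript and more of it per cell cannot be told apart, nor can fewer cells and less per cell for a gene that is lower. By log2 fold change GALNT2 ranked 248 of 14552 genes tested, and 7 of the 2282 genes with a mean of at least 100 CPM. These ranks rest on the values it was chosen for and only describe it. GALNT2 lies on the forward strand of chromosome 1 (230057990 to 230282124, GRCh38, GENCODE release 29). Of the 50-base stretches of its transcripts, 21.2% also occur in AL136988.1, a gene on the opposite strand that the table does not list. Whether the counting used strand is not given in the sources used here, so reads over that overlap cannot be assigned to 1 strand.

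Among the other 9 members, 4 were called lower in shMSLN cells, 1 was called higher and 4 were not called, with a median log2 fold change of -0.15. Over all tested genes, 18.0% were called lower and 16.6% higher, with a median of 0.0019. In CPM their groups did not overlap for 6 of the 9 (5 lower, 1 higher), beside 46.2% of all tested genes in either direction. In TPM, GALNT3 and GALNT6 among these did overlap. With 9 genes picked in view of these data, the counts describe this family and are read no further.

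**Figure D1:**
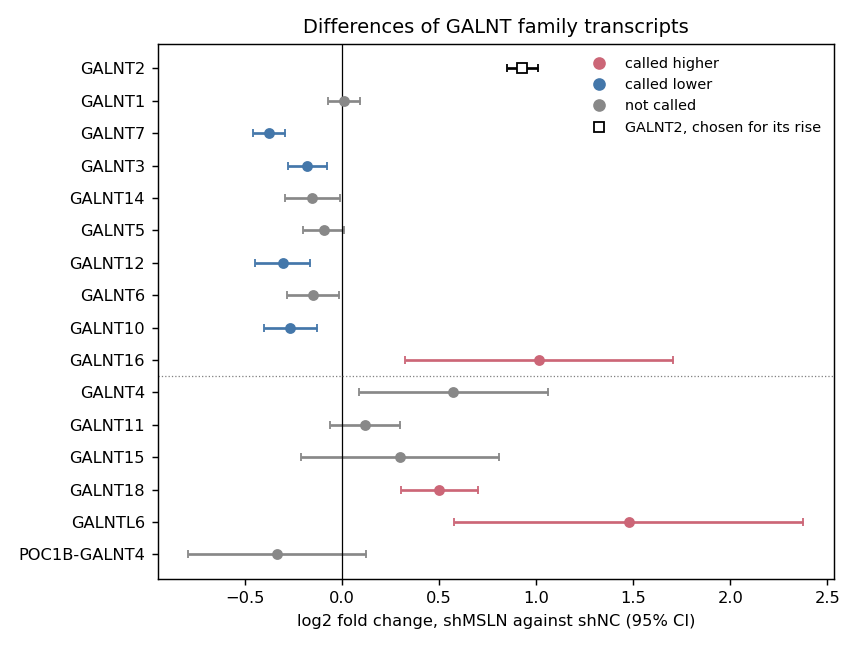
log2 fold change of shMSLN against shNC for the 10 members (above the dotted line) and for the other GALNT family genes tested (below it), with 95% intervals from the edgeR fit. GALNT2, drawn as an open square because it was chosen for its rise, stands at 0.93, and its interval does not allow for that choice and is no test. GALNT3, GALNT7, GALNT10 and GALNT12 lie to the left of 0, and the intervals of the low-level genes GALNT16 and GALNTL6 are wide.

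GALNT7 and GALNT10 are the follow-up enzymes of the set, which prefer peptides that already carry GalNAc. Both were lower in shMSLN cells. GALNT7 stood at 132, 132 and 136 CPM in the shNC samples and at 101, 104 and 104 CPM in the shMSLN samples, without overlap. Its log2 fold change was -0.37 (SE 0.039, adjusted p = 4.18e-06, edgeR), so its level fell by 22.8%, and this was the smallest adjusted p among the 9 tested members. The gene lies on the forward strand of chromosome 4 (173168753 to 173323967), and 8.25% of its 50-base stretches also occur in AC097534.1 or AC105285.1 on the opposite strand, which the table does not list. It was called under every alternative computed, with adjusted p from 2.7e-12 to 0.0028. GALNT10, with 25.7, 27.1 and 26.0 CPM in shNC and 22.8, 22.0 and 20.6 CPM in shMSLN samples, was also separate between groups (log2 fold change -0.27, SE 0.064, adjusted p = 0.0052, edgeR). That call was lost when shMSLN replicates 2 and 3 were left out (-0.20, adjusted p = 0.23).

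GALNT12, known for inherited variants in colorectal cancer families, and GALNT3, known for protecting the phosphate hormone FGF23 from cleavage, were also lower. Levels of GALNT12 were 21.1, 22.2 and 21.5 CPM in shNC and 16.9, 18.2 and 17.4 CPM in shMSLN samples, so every shMSLN sample was below every shNC sample. Its log2 fold change was -0.30 (SE 0.067, adjusted p = 0.0028, edgeR), although 22.9% of its 50-base stretches also occur in AL136084.2 on the opposite strand. For GALNT3 the shNC samples gave 85.1, 91.8 and 91.1 CPM and the shMSLN samples 75.4, 80.2 and 81.4 CPM. In CPM the groups lay apart by a narrow margin, with a log2 fold change of -0.18 (SE 0.048, adjusted p = 0.0095, edgeR). In TPM they overlapped, with the lowest shNC sample at 55.41 and the highest shMSLN sample at 55.48. Without shMSLN replicate 1 the GALNT3 value was -0.15 with an adjusted p of 0.051, and without shMSLN replicates 2 and 3 the log2 fold changes were larger in size but not called (-0.24, adjusted p = 0.061 for GALNT3 and -0.35, adjusted p = 0.053 for GALNT12), with 1 shMSLN sample left.

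GALNT6, the closest relative of GALNT3 and a gene often studied in breast cancer, was at 35.8, 33.4 and 33.2 CPM in shNC and 33.0, 29.1 and 30.4 CPM in shMSLN samples. The groups were separate by less than 1 CPM but overlapped in TPM. The difference did not pass the test (log2 fold change -0.15, SE 0.062, adjusted p = 0.078, edgeR). It passed without shMSLN replicate 1 (-0.20, adjusted p = 0.038, edgeR) and was smaller without shMSLN replicate 2 (-0.11, adjusted p = 0.30, edgeR). GALNT14, which is known to glycosylate death receptors for TRAIL, overlapped between groups with 35.6, 31.0 and 33.8 CPM in shNC and 31.8, 30.5 and 28.2 CPM in shMSLN samples (-0.15, SE 0.067, adjusted p = 0.094, edgeR). The overlap was that of shNC replicate 2 with shMSLN replicate 1. Without shNC replicate 2 the value was -0.20 (adjusted p = 0.029, edgeR), and without shNC replicate 1 it was -0.10 (adjusted p = 0.23, edgeR). GALNT5, the member with the longest coding sequence (940 codons before the stop, against 557 to 657 in the others), was at 71.8, 80.5 and 76.9 CPM in shNC and 71.3, 71.3 and 72.2 CPM in shMSLN samples. Here shNC replicate 1 lay among the shMSLN samples, and the difference did not pass the test (-0.093, adjusted p = 0.15, edgeR). Without that sample it did (-0.14, adjusted p = 0.018, edgeR), and without shNC replicate 2 it was smaller (-0.053, adjusted p = 0.44, edgeR).

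GALNT1, like GALNT2 a broadly active initiating enzyme, was level between the groups to within a few percent. Its samples read 149, 156 and 154 CPM in shNC and 150, 156 and 157 CPM in shMSLN, which overlap almost fully. The log2 fold change of 0.014 had a 95% interval of -0.069 to 0.097 (adjusted p = 0.81, edgeR). GALNT1 was the only member whose sign differed from its main value under any alternative, between -0.027 and 0.043.

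GALNT16 was the other member higher in shMSLN cells, at a level near the limit of what these libraries resolve. It had 17.8, 8.39 and 16.4 estimated counts in shNC and 20.7, 28.3 and 35.7 estimated counts in shMSLN samples, or 0.985, 0.443 and 0.890 against 1.13, 1.57 and 2.03 CPM. The groups did not overlap, but shNC replicate 1 and shMSLN replicate 1 differed by only a few counts. The log2 fold change was 1.02 (SE 0.32, 95% interval 0.33 to 1.71, adjusted p = 0.025, edgeR). GALNT16 met the filter on low counts only with shMSLN samples, as shNC replicate 2 fell below it. Part of a difference was thus built into its being tested, and the stricter filter removed the gene. The call was lost under DESeq2 (adjusted p = 0.065), without shNC replicate 2 (0.74, adjusted p = 0.091), without shMSLN replicate 2 (adjusted p = 0.064), without shMSLN replicate 3 (0.80, adjusted p = 0.13) and without shMSLN replicates 2 and 3 together (0.54, adjusted p = 0.52).

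The levels of the paralogs can be compared with each other only per length, in TPM. GALNT2 was at 118 ± 2.86 TPM (SD, n = 3) in shNC cells, followed by GALNT1 at 84.1 ± 3.68, GALNT7 at 68.4 ± 1.81, GALNT3 at 58.9 ± 3.13 and GALNT14 at 31.0 ± 1.08 TPM. Below these came GALNT5 at 23.6 ± 2.04, GALNT12 at 17.3 ± 0.870, GALNT6 at 15.5 ± 0.673, GALNT10 at 9.56 ± 0.482 and GALNT16 at 0.390 ± 0.111 TPM. No neighbours in this order overlapped between genes in shNC cells. In shMSLN cells GALNT2 was at 231 ± 2.93 TPM and GALNT1 at 87.0 ± 2.84 TPM. GALNT7 (53.9 ± 0.951 TPM) and GALNT3 (53.2 ± 2.77 TPM) now overlapped, and so did GALNT6 (14.6 ± 0.881 TPM) and GALNT12 (13.5 ± 0.696 TPM), which stood in the opposite order in shNC cells. The order of the other members was the same in both groups, with GALNT14 at 28.2 ± 1.91, GALNT5 at 22.5 ± 1.65, GALNT10 at 8.14 ± 0.373 and GALNT16 at 0.767 ± 0.200 TPM.

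**Figure D2:**
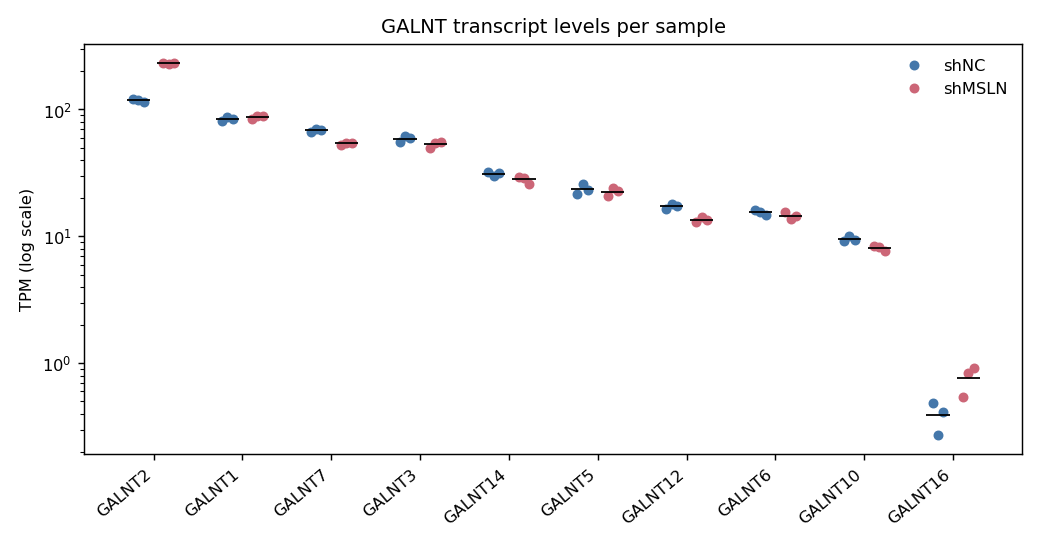
TPM of each member in every sample on a log scale, with shNC samples in blue, shMSLN samples in red and a black line at each group's mean. GALNT2 is at 118 TPM in shNC and 231 TPM in shMSLN cells, and the gap from GALNT2 to GALNT1 widens while GALNT7 drops to the level of GALNT3.

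The make-up of the GALNT transcript pool followed from these levels. GALNT2 made up 28.9%, 27.1% and 27.2% of the summed TPM of the 10 members in shNC replicates 1, 2 and 3, and 46.0%, 44.3% and 44.9% in shMSLN replicates 1, 2 and 3. The share was separate between groups by a wide margin, and it carries no test because GALNT2 was chosen for its rise. Shares of 8 of the other members were lower in every shMSLN sample than in any shNC sample, and their shares must sum to less as that of GALNT2 grows. Among them GALNT1 went from 19.7% ± 0.453 to 17.0% ± 0.418, GALNT7 from 16.0% ± 0.237 to 10.5% ± 0.101 and GALNT3 from 13.8% ± 0.495 to 10.4% ± 0.458 (SD, n = 3). The GALNT16 share, 0.0917% and 0.149%, overlapped. The 4 most abundant members together held 77.2% ± 0.0735 of the pool in shNC and 82.9% ± 0.483 in shMSLN cells. Transcripts of GALNT2 were 1.41 ± 0.0839 times those of GALNT1 in shNC and 2.66 ± 0.117 times in shMSLN cells, and 1.73 ± 0.0838 and 4.29 ± 0.123 times those of GALNT7.

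**Figure D3:**
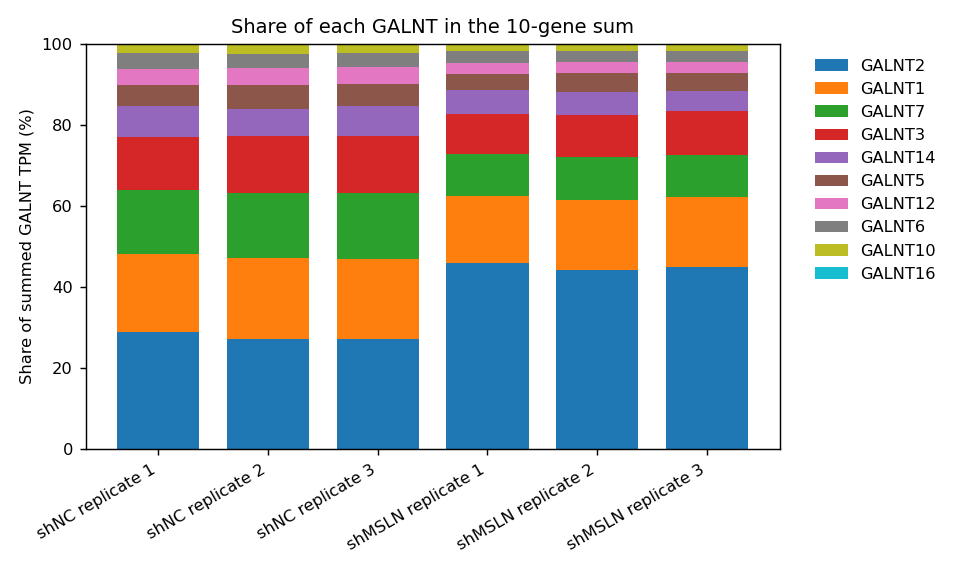
Share of each member in the summed TPM of the 10 GALNT genes (percent, stacked to 100) for the 6 samples. The lowest block, GALNT2, takes 27.1% to 28.9% in shNC and 44.3% to 46.0% in shMSLN samples, and the blocks of GALNT7 and GALNT3 narrow.

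The pool as a whole was larger in shMSLN cells, with a sum over the 10 members of 419, 437 and 425 TPM in shNC and 508, 515 and 516 TPM in shMSLN samples. Without GALNT2, the other 9 summed to 298, 319 and 310 TPM in shNC and 274, 287 and 284 TPM in shMSLN samples. Without GALNT2 the sum thus lay lower in every shMSLN sample, with a difference of -26.9 TPM (309 ± 10.3 against 282 ± 6.64 TPM, SD, n = 3). Within these 9, which leaves the selected gene out of the denominator, GALNT1 held 27.2% ± 0.300 in shNC and 30.9% ± 0.370 in shMSLN cells. A share rises where the sum falls, and the level of GALNT1 itself overlapped between the groups (84.1 ± 3.68 and 87.0 ± 2.84 TPM). The share of GALNT7 was 22.2% ± 0.256 and 19.1% ± 0.160, and that of GALNT12 5.60% ± 0.0981 and 4.80% ± 0.156. GALNT16 was also separate, at 0.127% and 0.271%, but on few counts (8.39 to 35.7 per sample). Its nearest samples were shNC replicate 1 at 0.164% and shMSLN replicate 1 at 0.197%. The shares of GALNT3, GALNT5, GALNT6, GALNT10 and GALNT14 overlapped between the groups. With FPKM in place of TPM the share of GALNT2 among the 10 was again 27.7% and 45.1%.

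RefSeq (GRCh38.p14) gave promoters, defined as 250 bases before to 50 after the start, for 8 of the 10 members, GALNT5 and GALNT6 being without an entry. Those of GALNT2 and GALNT7, the members above 100 CPM that moved in opposite directions, are shown from 5′ to 3′ with GC boxes (GGGCGG, searched on both strands) in capitals. The GALNT2 promoter is chr1:230066988-230067287 and that of GALNT7 chr4:173168561-173168860, both on the forward strand.
GALNT2: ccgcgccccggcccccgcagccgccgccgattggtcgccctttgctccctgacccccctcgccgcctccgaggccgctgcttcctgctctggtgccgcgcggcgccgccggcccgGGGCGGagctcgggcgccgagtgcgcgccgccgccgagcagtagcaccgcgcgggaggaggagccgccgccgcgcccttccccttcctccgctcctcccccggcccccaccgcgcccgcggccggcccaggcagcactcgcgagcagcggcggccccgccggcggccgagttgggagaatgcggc
GALNT7: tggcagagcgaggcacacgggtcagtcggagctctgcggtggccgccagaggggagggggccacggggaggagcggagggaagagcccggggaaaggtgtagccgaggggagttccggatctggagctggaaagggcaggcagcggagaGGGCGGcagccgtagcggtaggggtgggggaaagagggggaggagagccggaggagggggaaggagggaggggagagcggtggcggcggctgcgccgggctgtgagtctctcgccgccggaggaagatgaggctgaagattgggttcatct
Both were rich in G and C, with 82.0% and 51 CpG for GALNT2 and 69.7% and 23 CpG for GALNT7, beside medians of 58.7% and 14 CpG over 35116 promoters. Each held 1 GC box, as 44.95% of all promoters hold at least 1. Neither held the ETS core CCGGAAG, the AP-1 site TGANTCA or TATAAA, which on either strand occur in 10.26%, 7.71% and 11.53% of all promoters. These matches describe the letters of the window and were not related to the differences.

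The table lists 10 further genes of the family, of which 6 could be tested, with 2 called higher (16.6% of all genes were) and 0 called lower (also 0 at an unadjusted p under 0.05 and 0 by DESeq2). GALNT18, a member of the family with little known activity of its own, was at 9.58, 8.09 and 8.79 CPM in shNC and 12.3, 12.6 and 12.7 CPM in shMSLN samples. All shMSLN samples were higher (log2 fold change 0.50, SE 0.093, adjusted p = 0.00077, edgeR), and the call was lost without shMSLN replicates 2 and 3 (0.48, adjusted p = 0.056). GALNTL6 had 3.84, 3.37 and 5.00 estimated counts in shNC and 11.4, 11.0 and 12.0 in shMSLN samples (1.48, SE 0.42, adjusted p = 0.014, edgeR). It passed the filter on low counts through the shMSLN group alone, so a difference was built into its being tested, and its call was lost without shNC replicate 2 (adjusted p = 0.054), without shMSLN replicate 3 (adjusted p = 0.053) and without shMSLN replicates 2 and 3 (adjusted p = 0.20). GALNT11, known to act on the receptor NOTCH1, was at 17.4 ± 1.22 and 18.9 ± 1.79 CPM (0.12, adjusted p = 0.30, edgeR), and GALNT15 at 1.46 ± 0.378 and 1.79 ± 0.138 CPM (0.30, adjusted p = 0.36, edgeR). GALNT9, GALNT13 and GALNT17 did not exceed 0.785 CPM in any sample and were not tested, and GALNT8 had no value in shMSLN replicates 2 and 3 and at most 1 count elsewhere.

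GALNT4, another enzyme that prefers peptides already carrying GalNAc, shares its exon with the read-through gene POC1B-GALNT4 on chromosome 12, so the split of reads between the pair is uncertain. GALNT4 read 9.91, 5.49 and 4.17 CPM in shNC and 12.0, 8.81 and 8.30 CPM in shMSLN samples, and POC1B-GALNT4 6.18, 12.4 and 13.4 CPM and 6.72, 8.81 and 9.88 CPM. In both groups replicate 1 had the highest GALNT4 and the lowest POC1B-GALNT4. Their sum was 16.1, 17.9 and 17.5 CPM in shNC and 18.8, 17.6 and 18.2 CPM in shMSLN samples, which overlap. Neither gene was called in the test of all 6 samples without a replicate term (0.57, adjusted p = 0.065 and -0.33, adjusted p = 0.25, edgeR). Without shNC replicate 1 both were called in opposite directions (1.01, adjusted p = 6.09e-05 and -0.61, adjusted p = 0.00061), and GALNT4 was also called by limma-voom (0.65, adjusted p = 0.038).

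**Figure D4:**
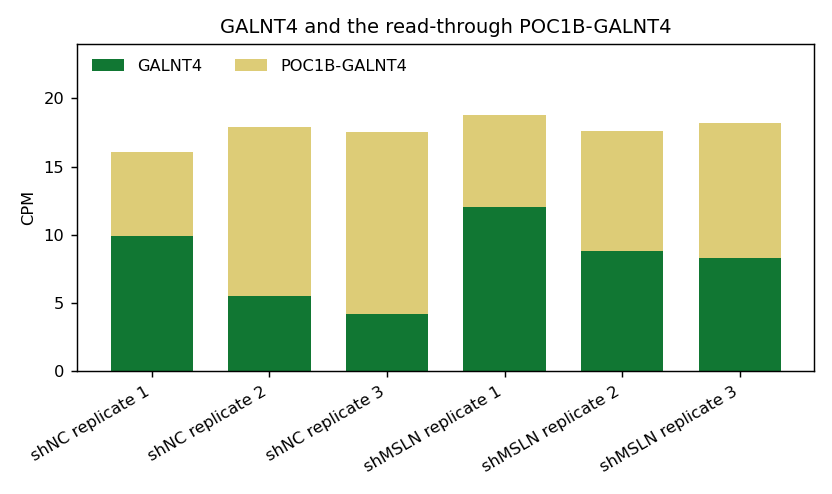
CPM of GALNT4 (green) and of the overlapping read-through gene POC1B-GALNT4 (sand), stacked for each of the 6 samples. The stacked height stays between 16.1 and 18.8 CPM. The green part is 23.8% to 61.6% of it in shNC and 45.7% to 64.2% in shMSLN samples, which overlap. It is largest in replicate 1 of each group.

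The enzymes that act after the GALNT step were read from a list of 8 core extension genes, of which 7 were tested, 3 were called higher and 2 lower (16.6% and 18.0% of all genes were), with a median log2 fold change of 0.11. C1GALT1, which adds galactose to the Tn antigen to make core 1, was at 45.2, 53.5 and 55.2 CPM in shNC and 39.3, 44.4 and 42.5 CPM in shMSLN samples (-0.29, SE 0.072, adjusted p = 0.0062, edgeR). The groups were separate by less than 1 CPM and overlapped in TPM. Its dedicated chaperone C1GALT1C1 was at 20.4 ± 1.33 and 22.0 ± 0.241 CPM and was not called (0.11, adjusted p = 0.24, edgeR). B3GNT3, which extends core 1, was lower in every shMSLN sample, with 46.5, 42.1 and 44.5 against 37.2, 35.6 and 33.7 CPM (-0.32, adjusted p = 0.00062, edgeR, and -0.25, adjusted p = 0.095 without shMSLN replicates 2 and 3). Of the enzymes that branch core 1 into core 2, GCNT4 was higher, with 22.4, 27.1 and 26.8 CPM in shNC and 35.2, 31.9 and 35.2 CPM in shMSLN samples (0.42, adjusted p = 0.00051, edgeR). GCNT1 was higher by less (64.9 ± 1.18 and 71.0 ± 2.04 CPM, 0.13, adjusted p = 0.038, edgeR), and that call was lost under DESeq2 (adjusted p = 0.11) and without any 1 of shNC replicates 2 and 3 or shMSLN replicates 2 and 3 (adjusted p from 0.084 to 0.14) or the pair of shMSLN replicates 2 and 3 (adjusted p = 0.54). GCNT3 was at 2.17 ± 0.248 and 1.81 ± 0.138 CPM and was not called (-0.26, adjusted p = 0.34, edgeR). The third gene called higher was C1GALT1C1L, a copy of C1GALT1C1 that may share reads with it (2.08 ± 0.278 and 3.45 ± 0.692 CPM, 0.73, adjusted p = 0.012, edgeR), which is named after its values were seen and lost its call without shNC replicate 3 (adjusted p = 0.053), without shMSLN replicate 2 (adjusted p = 0.062) and without shMSLN replicates 2 and 3 (adjusted p = 0.052).

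The sialylation list held the largest differences of the 3 pathway lists, with 10 of 11 genes tested, 6 called lower and 3 higher (18.0% and 16.6% of all genes were), and a median of -0.17. ST3GAL1, which caps core 1 with sialic acid, was at 99.4, 108 and 107 CPM in shNC and 54.7, 53.7 and 53.9 CPM in shMSLN samples. Every shMSLN sample lay near 54 CPM and far below every shNC sample (-0.95, SE 0.047, adjusted p = 2.08e-09, edgeR). ST6GALNAC1, which caps the Tn antigen itself to give sialyl-Tn, was at 7.83, 8.26 and 8.79 CPM in shNC and 3.28, 3.53 and 3.95 CPM in shMSLN samples. It too was separate, at -1.21 (SE 0.13, adjusted p = 5.47e-06, edgeR), and both calls held without shMSLN replicates 2 and 3 (adjusted p = 2.03e-05 and 0.00079). GNE, the enzyme that starts sialic acid synthesis, was at 49.0, 43.5 and 49.7 CPM in shNC and 37.6, 37.4 and 35.0 CPM in shMSLN samples (-0.37, adjusted p = 0.00027, edgeR). Named after their values were seen, the 3 called higher were ST3GAL2, SLC35A1 and CMAS, with log2 fold changes of 0.21, 0.17 and 0.15. None of these 3 was called without shMSLN replicate 3 or without shMSLN replicates 2 and 3, and under DESeq2 only CMAS was. The other 3 called lower, ST6GALNAC2, ST6GALNAC4 and NANS, also named after their values were seen, had log2 fold changes of -0.18, -0.32 and -0.16 and were not called under upper-quartile scaling, under DESeq2, or without shNC replicate 3, shMSLN replicate 3 or shMSLN replicates 2 and 3.

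Genes that supply UDP-sugars for the GALNT step gave 2 called lower and 0 higher of 7 tested (0 higher also at an unadjusted p under 0.05 and by DESeq2), with a median of -0.075. GNPNAT1, of the hexosamine pathway, was at 58.4 ± 1.58 and 52.9 ± 0.0817 CPM (-0.14, adjusted p = 0.025, edgeR), and GFPT2, of its first step, at 2.03 ± 0.266 and 1.28 ± 0.255 CPM (-0.67, adjusted p = 0.039, edgeR). Both calls were lost under DESeq2 (adjusted p = 0.087 and 0.14) and without shNC replicate 3, shMSLN replicate 1, shMSLN replicate 3 or the pair of shMSLN replicates 2 and 3, that of GNPNAT1 also without shMSLN replicate 2 and that of GFPT2 also without shNC replicate 2 (adjusted p from 0.061 to 0.30). GNPNAT1 was also not called under upper-quartile scaling (adjusted p = 0.068). PGM3, of the same pathway, was at 65.6 ± 1.55 and 60.3 ± 1.60 CPM and just missed the threshold (-0.12, adjusted p = 0.052, edgeR), which it passed without shNC replicate 1 (adjusted p = 0.024). UAP1, which makes UDP-GlcNAc, was at 43.2 ± 1.43 and 41.3 ± 1.66 CPM and was not called (-0.066, adjusted p = 0.36, edgeR). Over the 3 lists together, 24 of 26 genes were tested, with 6 called higher and 10 lower (16.6% and 18.0% of all genes) and a median of -0.098.

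**Figure D5:**
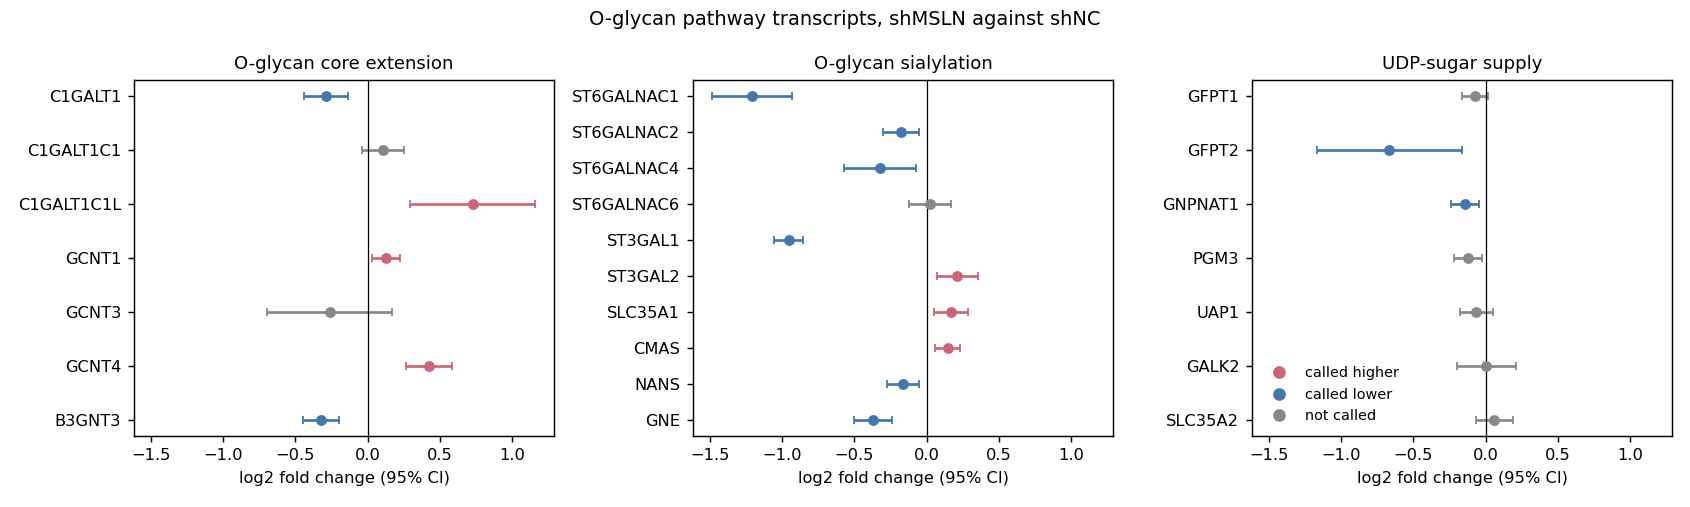
log2 fold change of shMSLN against shNC with 95% intervals for the tested genes of the core extension, sialylation and UDP-sugar supply lists. ST3GAL1 and ST6GALNAC1 lie furthest left, at -0.95 and -1.21, and no gene of the UDP-sugar supply list is called higher.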

How the data were processed

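RNA from 6 samples (3 per group by their labels) was sequenced by BGI after oligo(dT) enrichment. The authors deposited, per gene and sample, estimated counts not scaled to depth, with FPKM and TPM values scaled for length and depth. Per the labels the build was GRCh38.p13, and the aligner, quantifier and strand setting are not given in the sources used here. Of 17860 genes, 16573 had a value in every sample, and the 1287 with a missing mark in any shMSLN sample were dropped. The shNC samples had 0 marks and 1094 to 1150 genes at 0 counts. In shMSLN replicate 1 there were 1103 marks and 0 genes at 0. In replicates 2 and 3 there were 695 marks each, with 405 and 393 genes at 0. Whether the marks stand for 0 counts was not tested. 0 columns of per-sample values could not be matched to a sample.

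After rounding, estimated counts went through the quasi-likelihood test of edgeR 4.0.16 (R 4.3.3) with TMM library sizes, its default filter on low counts and no covariate, 3 samples against 3. Standard errors are the log2 fold change divided by the square root of F. With 17507837 to 18512135 counts per sample, genes near 1 CPM rest on few counts and are measured with low precision. Shares use TPM. As alternatives, scaling was changed to RLE or upper quartile, the filter was loosened or tightened, and the fit was repeated with DESeq2 1.42.0, limma-voom (limma 3.58.1), robust dispersions, a replicate block, missing values as 0, FPKM, or samples left out. The test was tried on simulated data.

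Members, lists and tests were chosen with earlier results of these data known. The text names all members, all listed family genes, MSLN, 7 pathway genes whatever their result (C1GALT1, C1GALT1C1, GCNT1, GCNT3, ST6GALNAC1, ST3GAL1 and UAP1), and the 3 genes of each list with the smallest adjusted p. 1 further gene that this rule covers is not reported here and is left out of the lists and their counts. Coordinates and overlaps are those of GENCODE release 29, which need not be the authors' annotation.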

Additional observations from a re-analysis of the deposited data

How the results depend on the processing

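GALNT2 had a log2 fold change of 0.91 to 0.96 over 16 alternatives, and of 159 member values 157 had the sign of the main value, GALNT1 being the exception. Member calls changed 13 times, and none reversed.

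With the replicate block, 2785 genes were called higher and 3004 lower. GALNT6 (adjusted p = 0.038), GALNT4 (adjusted p = 0.0011), POC1B-GALNT4 (adjusted p = 0.037) and PGM3 (adjusted p = 0.031) were then called, so 1 other family gene was called lower, and it changed no other call of a GALNT or pathway gene. Whether same-numbered samples belong together is not given in the labels. Correlations of their deviations were 0.165, 0.0764 and 0.0718, with 1 of 3 pairs over 0.1. Of the 6 samples, 6 correlated best with their own number, a hint from the data and not the design, so pairing is unknown.

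Without shMSLN replicates 2 and 3, where the lone shMSLN sample is assumed to vary like shNC, 876 genes were called higher and 921 lower. Members other than GALNT2 then gave 0 higher and 1 lower (GALNT7), other family genes 0 higher, core extension 1 higher and 1 lower, sialylation 0 higher and 3 lower, and UDP-sugar supply 0 lower. DESeq2 called 1753 genes higher and 2067 lower over all genes, where the main test called 2411 and 2621. Of members other than GALNT2 it called 0 higher and 4 lower, the latter as in the main test, and 1 other family gene higher. Among sialylation genes it called 1 higher and 3 lower, and among UDP-sugar genes 0 lower. The stricter filter called 2450 genes higher and 2584 lower, with 0 members other than GALNT2 and 1 other family gene higher. Upper-quartile scaling called 2911 genes higher and 2149 lower, with 3 sialylation genes and 1 UDP-sugar gene lower. The causes were not tested. Leaving out samples and the stricter filter also leave fewer samples or genes.

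With 1 sample left out in turn, members higher ranged from 0 to 1 and lower from 4 to 5, other family genes from 1 to 3 higher and 0 to 1 lower, core extension genes from 1 to 3 higher, sialylation genes from 0 to 2 higher and 3 to 5 lower, and UDP-sugar genes from 0 to 4 lower. All genes ranged from 1775 to 2570 higher and 1920 to 2829 lower. Low counts limit GALNT16, GALNTL6 and GFPT2.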
